A study of Vitis riparia with 12 samples.

Results

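The genes described here were those with lower expression under water deficit (WD) than in well-watered control (C) vines in both root tips and shoot tips of Vitis riparia, a wild North American grapevine used as a rootstock parent. There were 250 such genes among 29966 gene models. They were chosen by measured values: the mean C level had to be 1 CPM, or 1 read per 1000000 reads on genes, or more in both organs, every WD library had to lie below every C library in each organ, and the mean WD level had to be at most 1/1.5 of the mean C level in each organ. The lower WD values of these genes are therefore the basis of the choice, and they are described below without a test.

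The 12 libraries fell into 4 groups of 3, made up of WD and C vines in each of root and shoot. WD vines received no water and C vines were watered daily, tips were taken after 14 d, and each replicate combined 3 vines. The deposited labels name whole root and whole shoot tissue, while the study's methods describe tips. The vines were mature, potted and greenhouse grown, and all came from 1 germplasm accession of V. riparia according to the methods. The reads were counted on the gene models of another species, V. vinifera (PN40024 12X V1), so genes that differ between the species can be undercounted. Reads with several alignments were not counted, which makes the levels of near-identical members of large families uncertain. Reads on genes numbered 14376065 to 22800079 in the root libraries and 17429395 to 27769527 in the shoot libraries. RNA was extracted from root and shoot by different methods, so organ and extraction cannot be told apart where root is compared with shoot. In bulk tips, fewer cells of a type and less RNA per cell cannot be told apart.

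When soil dries, growing tips slow their elongation, photosynthesis declines, and abscisic acid (ABA) accumulates and is sensed by the PYR/PYL/RCAR receptors. Elongation needs a supply of wall polymers and of enzymes that loosen, cut and rejoin pectin and xyloglucan. The shikimate and phenylpropanoid pathways turn sugar carbon into aromatic compounds, among them lignin, flavonoids, tannins and acylated phenolics, which are abundant in young grapevine tissue. R2R3-MYB transcription factors control many genes of these pathways.

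Of the 16464 genes with a mean C level of 1 CPM or more in both organs, 402 met the limits in root (2.44%) and 3900 in shoot (23.7%). The 250 members were 62.2% of the root genes and 6.41% of the shoot genes. On the scale of log2(mean CPM + 0.5), the difference was larger in shoot than in root for 231 members and larger in root for 19, among them an isoflavone reductase whose place rests on the added 0.5 CPM. The median log2 ratio of WD over C on that scale was -0.81 in root and -1.79 in shoot, beside 0.03 in root and -0.13 in shoot over the 16464 genes. WD levels were at or below 1/2 of C in 90 members in root, in 235 in shoot and in 87 in both organs. They were at or below 1/4 of C in 10 members in root and in 141 in shoot. Across the members the root and shoot ratios were only loosely ordered alike (Spearman rho = 0.25, across 250 genes that the same limits truncate, and genes are not independent replicates). In shoot, 2 members, the isoflavone reductase VIT_07s0031g03070 and the cytochrome P450 CYP81B2v1 (VIT_09s0002g06480), had no more than 3 reads in any WD library, and no fold is given for them there.

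**Figure D1:**
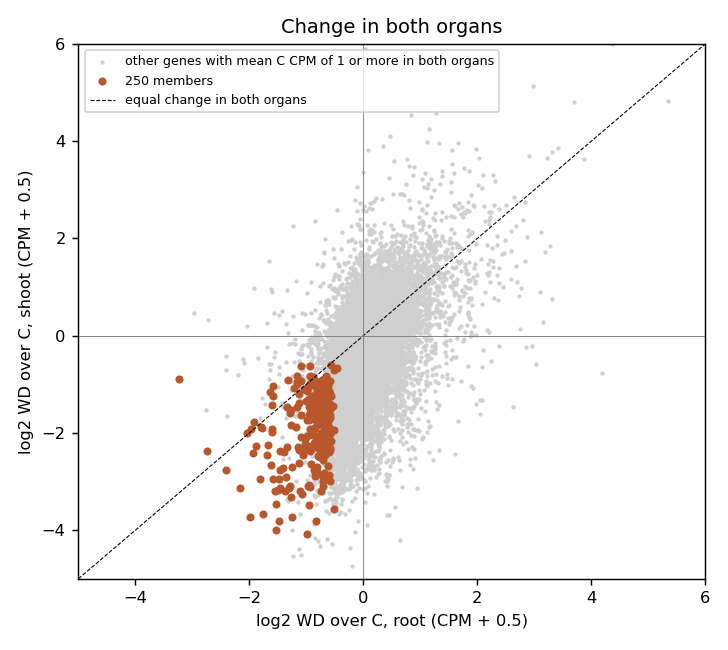
Change in both organs. Each point is a gene, with the log2 ratio of mean WD over mean C (CPM + 0.5) in root on the horizontal and in shoot on the vertical axis, for the 250 members in brown and the other genes with mean C CPM of 1 or more in both organs in grey. Most members, 231 of 250, lie below the dashed line of equal change.

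The WD libraries were not equally low. In root, the median log2 level of the members relative to the C mean was -0.57 in WD root replicate 1, -0.72 in replicate 2 and -1.28 in replicate 3. WD root replicate 3 was the lowest root library for 201 of the 250 members. In shoot the medians were -1.27, -1.85 and -2.37 in WD shoot replicates 1, 2 and 3, and replicate 3 was the lowest for 194 members. Whether root and shoot libraries of the same number came from the same vines is not stated, so the organs may not be independent. The C libraries lay between -0.16 and 0.16 in both organs. Without WD root replicate 3 the same limits gave 201 genes, of which 170 were among the 250. The number was 715 without WD root replicate 1 and 432 without C root replicate 2, with 245 and 235 of the 250 members among them. Summed over 14 genes annotated to the photosystems, chlorophyll binding or RuBisCO, none of them a member, the root libraries held 63.4, 65.1 and 146 CPM in WD root, against 21.3, 18.8 and 11.5 CPM in C root, with the most in WD root replicate 3. The shoot libraries held 8461 to 12327 CPM in WD shoot, against 5272 to 9967 CPM in C shoot. All 14 genes had reads in WD root replicate 3 and 9 to 13 of them in the other root libraries. These 14 genes were found by annotation words among genes that the study had called between WD and C on these libraries. Their differences between WD and C are therefore not independent evidence. No annotated gene matched the words used for root markers. The part of the green-tissue genes in the members' values was not tested.

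**Figure D2:**
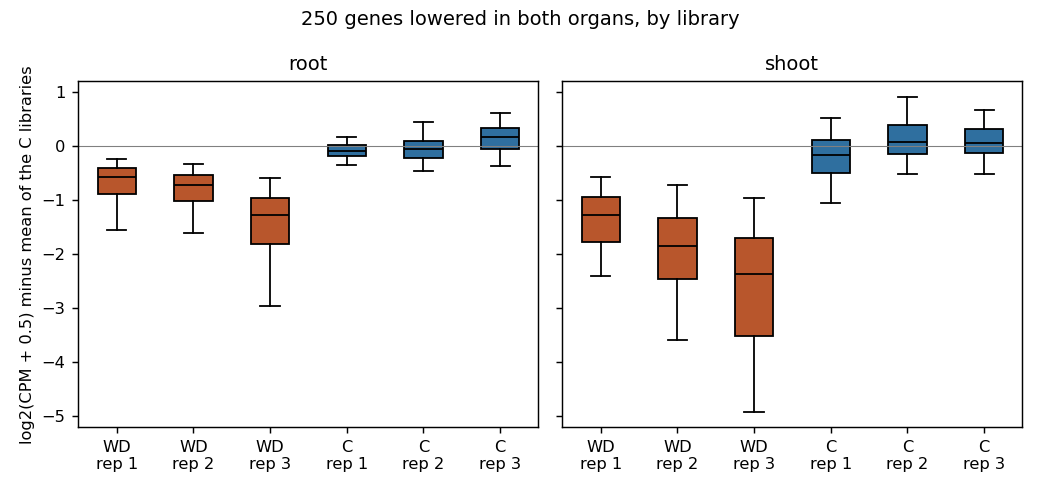
Members by library. Boxes show the quartiles and median of log2(CPM + 0.5) minus the mean of the C libraries over the 250 members, with whiskers from the 5th to the 95th percentile, for WD (brown) and C (blue) libraries of root (left) and shoot (right). WD replicate 3 has the lowest median in both organs, at -1.28 in root and -2.37 in shoot.

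edgeR's quasi-likelihood test of WD against C, run on all genes, called 0 of the 250 members lower in WD root at an adjusted p under 0.05, where it called 0.00% of all 19545 genes tested. At an unadjusted p under 0.05, 181 members and 637 of all genes were lower in WD root, and DESeq2's Wald test called 54 members and 164 of all 19545 genes. In WD shoot edgeR called 146 of the 247 members that passed its filter, beside 14.0% of all genes tested. The limits used these same contrasts, so nothing is read from these counts.

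An annotation was at hand for 137 of the members, all from the study's table of genes it had called in WD root. Of these annotations 119 say what the protein is, and the other 113 members are given by identifier only. Only part of the study's annotation of shoot genes was at hand, and no member's annotation came from it. The annotated members had lower median log2 ratios of WD over C than all 250 members, in both root and shoot. A missing annotation means that the gene was not in the study's table of genes called in WD root. It does not mean that the protein is unknown. Since that table was made from these libraries, the counts per gene family below are not independent evidence of direction. It held 986 of the 16464 genes, of which 137 (13.9%) were members, 218 met the limits in root and 250 in shoot. Every count of annotated genes or of genes in a list below covers only these 986, of the 1385 genes in that table. Families are therefore larger than the counts given.

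The shikimate and phenylpropanoid pathways held the members with some of the highest levels and largest differences. Shikimate dehydrogenase (VIT_14s0030g00660, chromosome 14, 4804563 to 4811294 as the deposited table gives it), which makes shikimate on the way to the aromatic amino acids, had 478, 307 and 99.6 CPM in WD root, against 641, 489.8 and 970.0 CPM in C root. In shoot it had 32.9, 5.13 and 1.26 CPM in WD shoot, against 148, 149 and 246 CPM in C shoot. It was thus 2.38-fold lower in WD root and 13.8-fold lower in WD shoot, and WD replicate 3 was the lowest library in both organs. Phenylalanine ammonia-lyase (PAL, VIT_06s0004g02620), which opens the phenylpropanoid pathway, had 292, 202 and 189 CPM in WD root, against 375, 465 and 411 CPM in C root. Its shoot levels were 71.2, 72.1 and 29.2 CPM in WD shoot, against 160.0, 239.7 and 169 CPM in C shoot, so that WD was 3.299-fold lower. PAL belongs to a family of close copies, so its level is uncertain.

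Of 19 annotated genes of flavonoid and phenylpropanoid synthesis, 8 were members, 10 met the limits in root and 12 in shoot. The 8 had a median log2 ratio of -0.97 in root and -1.58 in shoot. Chalcone synthase (VIT_14s0068g00920), the first enzyme of the flavonoid branch, was 2.01-fold lower in WD root, with 199, 111 and 91.1 CPM in WD root, against 237, 284 and 284 CPM in C root. In WD shoot it was 2.54-fold lower. Flavonol synthase (VIT_13s0047g00210) was 1 of the 19 members with the larger difference in root, where it was 3.17-fold lower, against 2.29-fold in shoot. A homologue of the petunia WD40 protein AN11 (ATAN11, VIT_08s0007g02920) entered the list only through the word anthocyanin in its annotation. AN11 is needed in petunia for anthocyanin pigmentation, and whether the grapevine gene has this role was not tested. ATAN11 averaged 7.26 ± 2.03 CPM in WD root, against 14.9 ± 3.53 CPM in C root (SD, n = 3 each). In shoot it averaged 1.69 ± 0.696 CPM in WD, against 10.2 ± 2.08 CPM in C (SD, n = 3 each). A pair of anthocyanidin 5,3-O-glucosyltransferases and the dirigent protein pDIR9 were the other members of this list, beside an isoflavone reductase with few reads in shoot. PAL, chalcone synthase and flavonol synthase are named here after their values were seen.

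Enzymes that attach or move phenolic groups stood beside them, in groups that were formed after the values were seen. Serine carboxypeptidases, a family that includes acyltransferases of phenolic esters, gave 5 members of 6 annotated genes, 2.21- to 3.45-fold lower in WD root and 5.05- to 15.5-fold lower in WD shoot. VIT_11s0065g00720 had 39.8, 26.2 and 4.34 CPM in WD root, against 76.7, 58.2 and 108 CPM in C root, and 5.496, 0.559 and 0.229 CPM in WD shoot, against 24.3, 26.5 and 46.3 CPM in C shoot. A gene annotated as sinapoylglucose:malate sinapoyltransferase (SNG1, VIT_03s0091g01200, chromosome 3, 7855564 to 7861870), which in Arabidopsis is an enzyme of the same family that makes sinapoylmalate, had 61.00, 45.8 and 5.26 CPM in WD root, against 129, 95.8 and 222 CPM in C root. Its shoot levels were 7.28, 2.84 and 0.459 CPM in WD shoot, against 40.6, 43.97 and 74.7 CPM in C shoot, and by the mean of both organs it had the largest difference of all members with 10 CPM or more in C. WD root replicate 3 was about an order of magnitude below the other WD root libraries for this gene, while the WD and C libraries did not overlap. A pair of limonoid UDP-glucosyltransferases, named for a citrus enzyme, were members too: VIT_03s0180g00200 averaged 174 CPM in WD root, against 478 CPM in C root, and 43.8 CPM in WD shoot, against 230.4 CPM in C shoot. Of 18 annotated UDP-glucosyltransferases only 4 were members, and the median log2 ratio over the 18 was 0.94 in root and 0.64 in shoot.

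Laccases and diphenol oxidases, grouped after the values were seen, are copper enzymes of the cell wall that can oxidise lignin precursors. They gave 4 members of 6 annotated genes, and all 6 met the limits in shoot. Among the secretory peroxidases and laccases of the fixed list, 2 of 11 were members, both of them laccases and none a peroxidase. Laccase VIT_18s0001g02350 had 18.4, 15.1 and 0.877 CPM in WD root, against 30.4, 21.8 and 45.1 CPM in C root. Its shoot values were 4.58, 1.54 and 0.402 CPM in WD shoot, against 19.8, 15.1 and 34.04 CPM in C shoot, a 10.6-fold lower mean to which WD replicate 1 gave most of the WD level. Laccase VIT_17s0000g02590 had 134, 100.2 and 50.7 CPM in WD root, against 157, 147 and 247 CPM in C root. In shoot it had 11, 1 and 0 reads in WD, against 17, 121 and 408 reads in C, so the shoot groups were separated by few reads and the C libraries ranged widely. SKU5 similar proteins, relatives of the copper oxidases that act at the wall, gave 2 members of 2 annotated genes. This group was also formed after the values were seen.

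Of the 77 genes in the list of transcription factors 6 were members, and all 6 were MYB factors. Of 19 annotated MYB factors, counted after the values were seen, the other 13 were not members, and the median log2 ratio over the 19 was 1.21 in root and 0.74 in shoot. The AP2 factor Wrinkled1 (VIT_09s0018g01650), which the words of that list did not catch, was a member too. MYB32 (VIT_04s0008g01830), which in Arabidopsis belongs to a subgroup of repressors of phenylpropanoid genes, had 27.7, 37.01 and 7.32 CPM in WD root, against 53.2, 41.97 and 109 CPM in C root. Its levels in shoot were 0.5597, 0.699 and 0.115 CPM in WD, against 11.3, 9.43 and 18.3 CPM in C, a 28.4-fold lower mean. MYB13 (VIT_11s0016g01320) was 25.2-fold lower in WD shoot, with 1.78, 0.652 and 0.402 CPM in WD shoot, against 31.4, 21.3 and 18.8 CPM in C shoot. In root it was 2.05-fold lower, and its highest WD root library (8.42 CPM) lay close to its lowest C root library (9.75 CPM). MYB7 and MYB6 (VIT_17s0000g02650 and VIT_17s0000g02660) are neighbours on chromosome 17. MYB6 averaged 3.77 ± 1.44 CPM in WD shoot, against 17.9 ± 5.48 CPM in C shoot (SD, n = 3 each), a 4.73-fold lower mean, against 1.89-fold for MYB7. Wrinkled1 and MYB7 are named here after their values were seen.

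**Figure D3:**
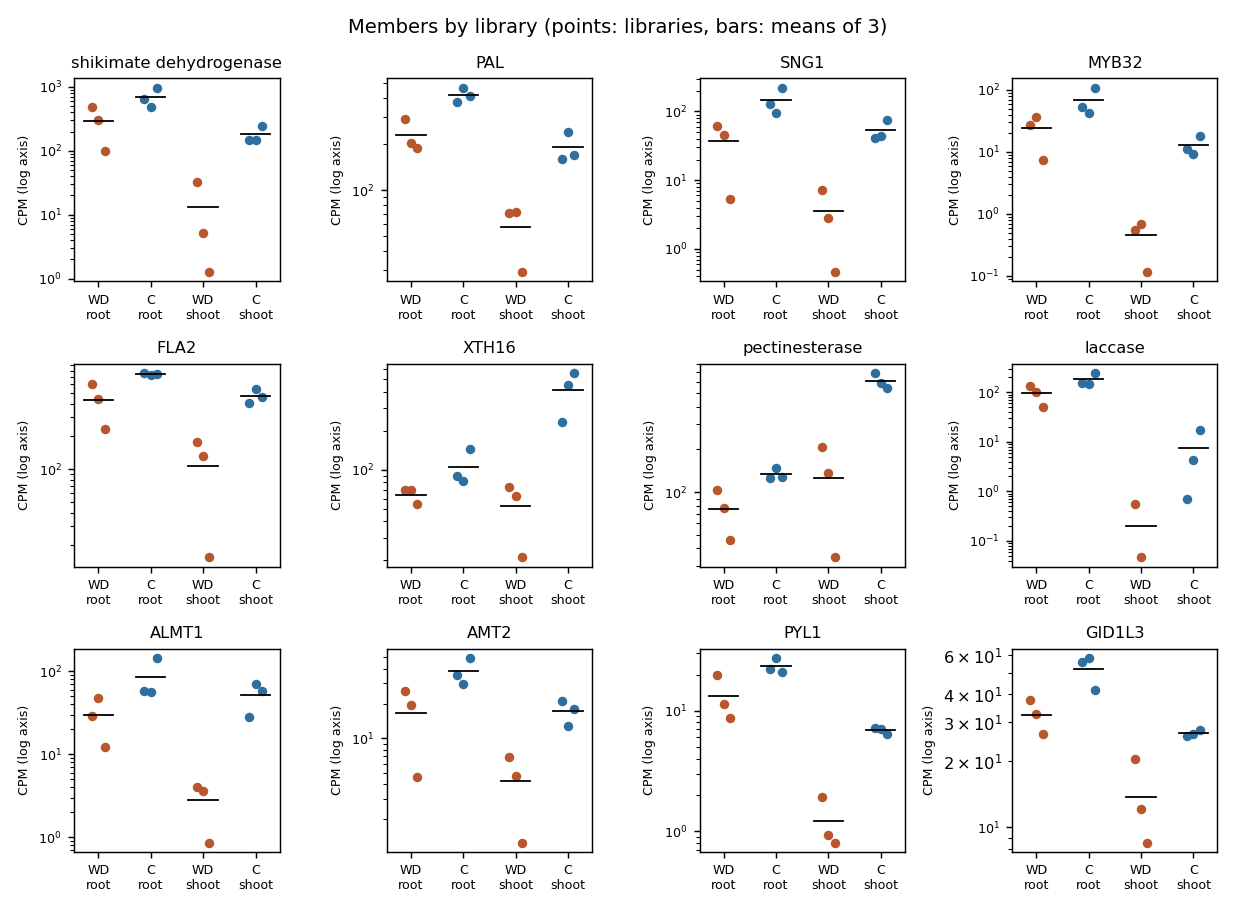
Members by library. Points are CPM of single libraries on a log axis, bars the means of 3, for WD and C libraries of root (left) and shoot (right), for 12 members. In each panel the WD points lie below the C points of the same organ, as the choice of genes requires, and WD replicate 3 (the right point of each group) is often the lowest, as at 99.6 CPM in root for shikimate dehydrogenase.

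In VitisNet, a set of grapevine pathway maps, the cell wall map held the most members, 12 of 41 annotated genes (29.3%). The share over all annotated genes was 13.9%. Among maps with 3 or more members, shares ran from 17.6% (ABA signaling) to 60.0% (phenylpropanoid biosynthesis and nucleotide sugars). The cell wall map was thus the largest by count but not by share. Among pectin enzymes 6 of 13 were members, 8 met the limits in root and 8 in shoot. A pectinesterase (VIT_16s0098g01900, chromosome 16, 21976021 to 21979098), an enzyme that removes methyl esters from pectin, had 103, 77.7 and 45.5 CPM in WD root, against 126, 148 and 128 CPM in C root. For shoot the values were 207, 136 and 34.6 CPM in WD shoot, against 693, 587 and 542 CPM in C shoot, and the groups were apart by more than the spread of either. An invertase/pectin methylesterase inhibitor (VIT_11s0016g00590) was 2.002-fold lower in WD root and 8.59-fold lower in WD shoot, with 62.7, 59.4 and 28.7 CPM in WD shoot, against 208, 467 and 619.9 CPM in C shoot. A second inhibitor of this annotation (VIT_04s0044g01100) was 3.11-fold lower in WD root and 6.31-fold lower in WD shoot, where its C level was only 3.44 CPM. Both an enzyme that acts on pectin methyl esters and genes annotated as inhibitors of such enzymes were thus among the members. A pair of polygalacturonases and another pectinesterase made up the rest.

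Arabinogalactan, extensin and proline-rich wall proteins gave 4 members of 9 annotated genes, with medians of -0.80 in root and -2.05 in shoot. Fasciclin-like arabinogalactan protein FLA2 (VIT_12s0057g01020, chromosome 12, 9713035 to 9714690), a cell surface glycoprotein, had 612, 437 and 235 CPM in WD root, against 767, 728 and 753 CPM in C root. The shoot libraries had 178, 131 and 15.5 CPM in WD shoot, against 408, 550.5 and 462 CPM in C shoot. The root means were 428 ± 189 CPM in WD, against 749 ± 20.1 CPM in C (SD, n = 3 each), so the WD libraries were spread more widely. FLA17 (VIT_08s0032g00930) was 1.73-fold lower in WD root and 4.76-fold lower in WD shoot, and FLA4 (VIT_06s0004g04610) was 1.55-fold and 4.02-fold lower in the same order. Xyloglucan endotransglycosylase/hydrolase 16 (XTH16, VIT_12s0134g00160), which cuts and rejoins xyloglucan, had 73.1, 62.5 and 21.1 CPM in WD shoot, against 233, 455 and 561 CPM in C shoot. In root its mean was 64.5 CPM in WD, against 105 CPM in C. It was the only member of 6 annotated xyloglucan enzymes, of which 3 met the limits in shoot. CSLC05 (VIT_09s0018g01950), of the family that makes the glucan backbone of xyloglucan, was the only member of 13 annotated genes of the cellulose synthase family and was 1.64-fold lower in WD root and 6.06-fold lower in WD shoot.

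Sugar and energy metabolism gave further members, all but the first of them named after their values were seen. A chloroplast glucose-6-phosphate dehydrogenase (VIT_12s0057g01030), which feeds the pentose phosphate pathway and yields NADPH, had 63.6, 41.3 and 10.1 CPM in WD root, against 99.5, 82.3 and 154 CPM in C root. In shoot it had 40, 5 and 0 reads in WD, against 9.55, 8.97 and 21.6 CPM in C, so that the highest WD library was at 2.04 CPM. This gene lies 790 bases from FLA2, and both are members. Fructokinase-1 (VIT_05s0102g00710), which phosphorylates fructose, was 1.81-fold lower in WD root, at a mean of 176 CPM in WD root, against 318 CPM in C root, and 3.76-fold lower in WD shoot. Both annotated pyruvate kinases, the last step of glycolysis, were members, 1.701- and 1.75-fold lower in WD root and 5.38- and 3.895-fold lower in WD shoot.

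Among transporters, the gene annotated as the aluminium-tolerance protein ALMT1 (VIT_06s0009g00480), a channel that releases malate in wheat and Arabidopsis roots, was 18.6-fold lower in WD shoot. It had 3.97, 3.59 and 0.861 CPM in WD shoot, against 28.3, 70.1 and 58.5 CPM in C shoot. In root it had 29.01, 47.6 and 12.1 CPM in WD root, against 57.5, 55.7 and 144 CPM in C root, with WD replicate 2 near the lower C libraries. The list of mineral nutrient transporters gave 4 members of 18, but SKS17 and SKS5 entered it only through the word copper and are annotated as monocopper oxidases. The other members were ammonium transporter 2 (AMT2, VIT_08s0058g00140) and sulfate transporter 3.1 (VIT_07s0151g00340), the second of which is named after its values were seen. AMT2 had 25.9, 19.3 and 4.61 CPM in WD root, against 35.4, 29.5 and 49.5 CPM in C root, and 6.92, 4.75 and 1.26 CPM in WD shoot, against 20.9, 12.9 and 17.8 CPM in C shoot. Among MATE carriers, which move phenolics and organic anions, 4 of 9 annotated genes were members, a group formed after the values were seen, with the TT12 homologue (VIT_12s0028g01150) 1.78-fold lower in WD root and 2.86-fold lower in WD shoot.

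Both annotated ABA receptors that were expressed in both organs, PYL4 (VIT_08s0058g00470) and PYL1 (VIT_02s0012g01270), were members. The receptors were counted as a group after the values were seen. In the wider VitisNet map of ABA signaling, 3 of 17 annotated genes were members (17.6%), beside 13.9% of all annotated genes. Both receptors were counted among genes that the study had called in WD root, not over the receptor family. The study reports PYL6 in WD shoot as an exception to the lower receptor levels. PYL4 had 15.2, 6.47 and 12.9 CPM in WD root, against 20.02, 22.4 and 18.6 CPM in C root, and it was 5.12-fold lower in WD shoot. PYL1 had 19.96, 11.3 and 8.77 CPM in WD root, against 22.1, 27.5 and 20.9 CPM in C root, with WD replicate 1 close to the lowest C library. In shoot PYL1 had 1.93, 0.932 and 0.803 CPM in WD shoot, against 7.13, 7.06 and 6.41 CPM in C shoot. For PYL4 the lowest WD root library was replicate 2, not replicate 3.

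Of 4 annotated gibberellin genes, 2 were members. Gibberellin 3-beta-dioxygenase (VIT_16s0022g02310), which makes the active hormone, averaged 21.9 ± 4.698 CPM in WD root, against 40.3 ± 7.599 CPM in C root (SD, n = 3 each). In shoot it averaged 2.46 ± 1.23 CPM in WD, against 8.58 ± 1.68 CPM in C (SD, n = 3 each). The gibberellin receptor GID1L3 (VIT_15s0048g01390) was 1.61-fold lower in WD root and 1.95-fold lower in WD shoot. The auxin list had 1 member of 12, auxin-induced protein 22D (VIT_14s0030g02310), of the Aux/IAA repressors, which was 2.11-fold lower in WD root and 5.13-fold lower in WD shoot.

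**Figure D4:**
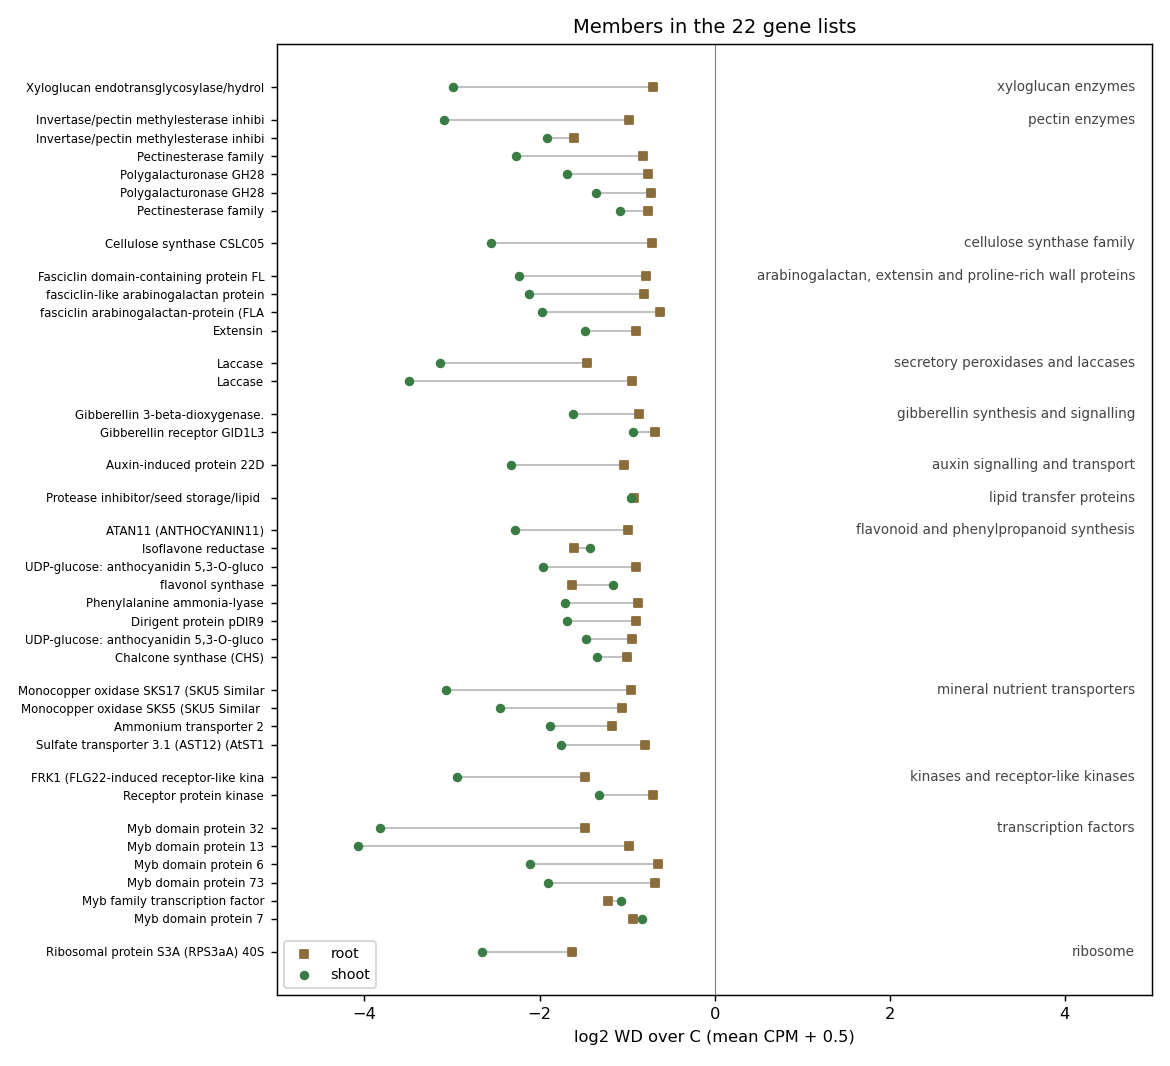
Members in the gene lists. Each line is a member in 1 of the 22 lists of gene families, with its log2 ratio of mean WD over mean C (CPM + 0.5) in root (squares) and in shoot (circles). The shoot circle lies left of the root square except for flavonol synthase, MYB7, 1 further MYB factor and isoflavone reductase, whose shoot position rests on the added 0.5 CPM because it had 2, 3 and 0 reads in WD shoot, with the lowest value at -4.07 for MYB13 in shoot.

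Of the 6 members with the highest level in both organs, 4 had no annotation, as they were not in the study's table of genes called in WD root. By the lower of the 2 C levels, VIT_18s0122g00120 came first, with 975, 940.0 and 514 CPM in WD root, against 1276, 1333 and 1619 CPM in C root. In shoot it had 134, 115 and 43.3 CPM in WD shoot, against 609, 571 and 456 CPM in C shoot. Per length, FLA2 was higher in C root than this gene, at 432 RPKM against 153 RPKM. VIT_17s0000g05070, VIT_06s0061g01120 and VIT_05s0136g00260, also without annotation, were 1.53- to 1.69-fold lower in WD root and 2.02- to 5.09-fold lower in WD shoot. A deoxyribodipyrimidine photolyase (VIT_07s0005g00590), a light-driven DNA repair enzyme, was among the few with the larger difference in root, 1.92-fold, against 1.54-fold in shoot. Germin-like protein 2 (VIT_14s0060g00120), a wall glycoprotein that the study counted among its superoxide dismutase genes and that the words of the ROS list did not catch, was lower in both, 2.204-fold in WD root and 2.32-fold in WD shoot. VIT_05s0062g01260, whose annotation names no protein, had 4.38, 16.8 and 3.86 CPM in WD root, against 24.9, 25.3 and 67.03 CPM in C root, and was 11.6-fold lower in WD shoot.

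Single members stood in some other lists. A lipid transfer protein (VIT_06s0004g00910), 1 of 6 annotated, was 1.91-fold lower in WD root and 2.03-fold lower in WD shoot. Of 24 kinases and receptor-like kinases 2 were members: the homologue of FRK1 (VIT_07s0005g06500), which flagellin induces in Arabidopsis, with 3.62, 3.04 and 7.37 CPM in WD root, against 9.43, 22.6 and 9.88 CPM in C root, and a receptor protein kinase (VIT_05s0062g01070), 1.63-fold lower in WD root and 2.51-fold lower in WD shoot. WD root replicate 3 was the highest WD root library for FRK1. The single ribosomal gene, a copy of RPS3aA (VIT_05s0020g03910), had 1.04, 0.553 and 0.219 CPM in WD root, against 3.55, 1.73 and 3.46 CPM in C root. By the words of these lists, no member was found among the annotated expansins (1 gene), cell cycle genes (1), histones (11), cytoskeleton genes (4), aquaporins (2), brassinosteroid and sterol genes (2), fatty acid, wax and cutin genes (3), nucleotide sugar genes (3) or genes whose annotation words name a ROS scavenger (3). The words miss some annotated members. The VitisNet map of nucleotide sugar metabolism held 3 members of 5 annotated genes. The words for fatty acids, waxes and cutin did not catch the member CYP86A2. The 113 members without annotation may belong to any of these families, so these counts do not describe the families as a whole. All 4 annotated cytoskeleton genes met the limits in shoot and 0 did in root.

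Root and shoot tips of watered vines were compared by edgeR's quasi-likelihood test over the 6 C libraries, two-sided, with p-values adjusted over all 20536 genes tested by the Benjamini-Hochberg method and a threshold of 0.05. The limits did not use this contrast, but they used the same C libraries as the higher group of each organ. The comparison is therefore not independent of the choice. The members' median C level was 38.4 CPM in root and 19.9 CPM in shoot, beside 21.9 and 22.9 CPM over the 16464. How far the choice itself gave the differences between organs was not tested. Of the 250 members, 111 (44.4%) were higher in C root than in C shoot, where 26.8% of all genes tested and 23.7% of the 16464 were. In the other direction 50 members (20.0%) were lower in C root than in C shoot, beside 29.3% of all genes tested and 27.1% of the 16464. The members' median log2 fold change of C root over C shoot was 0.64, beside -0.02 over all genes tested, and 170 of 250 (68.0%) had a value above 0, beside 49.0% of the 16464. For 95 of the 111 the mean level in WD root was still above that in C shoot. The members higher in C root included all 5 serine carboxypeptidases and both ABA receptors, and neither the pectin enzymes (2 higher, 3 lower) nor the wall glycoproteins (1 higher, 2 lower) lay on 1 side.

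**Figure D5:**
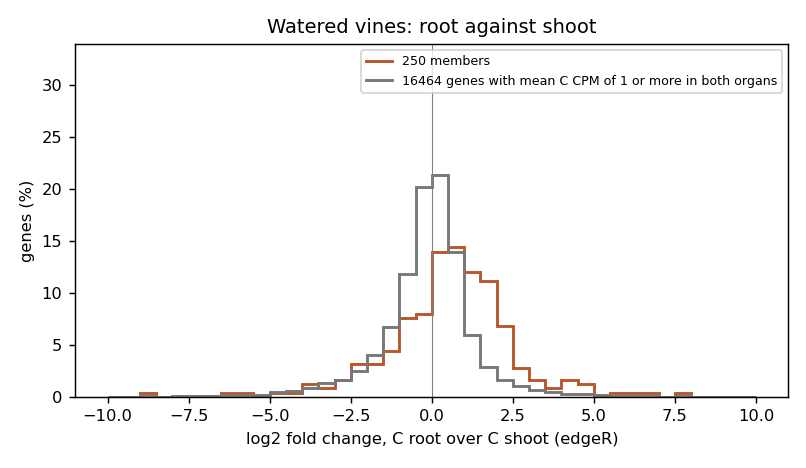
Watered vines, root against shoot. The share of genes (%) is plotted by edgeR log2 fold change of C root over C shoot in steps of 0.5, for the 250 members (brown) and the 16464 genes with mean C CPM of 1 or more in both organs (grey). The members lie further right, with a median of 0.64.

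The most root-weighted member was the isoflavone reductase VIT_07s0031g03070 (log2 fold change 7.60, SE 0.85, edgeR adjusted p = 5.48e-04). It had 62.9, 79.4 and 77.1 CPM in WD root, against 189.9, 293 and 188 CPM in C root, while in shoot it had 2, 3 and 0 reads in WD, against 7, 72 and 7 reads in C. Beta-fructosidase BFRUCT1 (VIT_04s0008g01150), an invertase that splits sucrose, came next (log2 fold change 6.5, SE 0.73, edgeR adjusted p = 5.54e-04). It was 1.95-fold lower in WD root, and in shoot it had 12, 0 and 0 reads in WD, against 15, 19 and 89 reads in C. A secoisolariciresinol dehydrogenase of lignan synthesis (VIT_08s0007g02720) followed (log2 fold change 6.15, SE 0.18, edgeR adjusted p = 3.10e-05).

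At the shoot end stood a Bet v I family protein (VIT_01s0026g00570, log2 fold change -8.95, SE 0.67, edgeR adjusted p = 1.43e-04), a relative of the birch pollen allergen. It had 332, 213 and 40.2 CPM in WD shoot, against 1594, 537 and 839.9 CPM in C shoot, but only 1.2521, 0.664 and 0.395 CPM in WD root, against 2.22, 1.64 and 2.96 CPM in C root. CYP86A2 (VIT_02s0025g03320), which in Arabidopsis makes hydroxylated fatty acids for cutin, had 110.3, 115 and 13.9 CPM in WD shoot, against 641, 224 and 287 CPM in C shoot (log2 fold change -6.26, SE 0.63, edgeR adjusted p = 3.77e-04). The root libraries had 2.295, 2.66 and 3.03 CPM in WD root, against 3.39, 6.93 and 6.67 CPM in C root. VIT_06s0004g02060, without annotation, was the third (log2 fold change -5.87, SE 0.54, edgeR adjusted p = 2.73e-04).

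Other members named above differed less between the organs of watered vines. Shikimate dehydrogenase was higher in C root than in C shoot (log2 fold change 1.84, SE 0.33, edgeR adjusted p = 0.00371), as was MYB32 (log2 fold change 2.27, SE 0.44, edgeR adjusted p = 0.00507). XTH16 was lower in C root (log2 fold change -2.08, SE 0.35, edgeR adjusted p = 0.00281), and so was pectinesterase VIT_16s0098g01900 (log2 fold change -2.32, SE 0.21, edgeR adjusted p = 2.27e-04). ALMT1 was not called (log2 fold change 0.63, SE 0.46, edgeR adjusted p = 0.277), nor was CSLC05 (log2 fold change -0.29, SE 0.15, edgeR adjusted p = 0.1398), which does not show equal levels.

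Of the members, 231 lay on a numbered chromosome. There were 10 pairs of members on adjacent gene models, holding 19 members. Besides FLA2 with glucose-6-phosphate dehydrogenase and MYB7 with MYB6, VIT_14s0030g00650, without annotation, lies 635 bases from shikimate dehydrogenase. It averaged 258 CPM in WD root, against 547 CPM in C root, and 11.8 CPM in WD shoot, against 117 CPM in C shoot. Whether reads of 1 gene were counted on its neighbour was not tested. This neighbour is named after its values were seen.

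The members nearest inside the limits were VIT_01s0113g00420, with means of 68.7 CPM in WD root, against 103 CPM in C root, and VIT_05s0077g02120, with 8.601 CPM and 12.9 CPM in the same groups. Just outside stood a flavanone 3-hydroxylase (VIT_04s0023g03370), an early enzyme of the flavonoid pathway, with means of 249 CPM in WD root, against 373 CPM in C root, and VIT_15s0046g02560, with 69.9 CPM in WD root, against 105 CPM in C root. The flavanone 3-hydroxylase was 4.68-fold lower in WD shoot.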

How the data were processed

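RNA sequencing of root and shoot tips gave 12 libraries. The authors mapped single-end reads to the V. vinifera PN40024 12X V1 assembly with Bowtie2 2.1.0 and TopHat, and deposited for each organ 1 table of raw counts per gene and 1 of RPKM values, a level per length of the gene model and library size, which also gives the positions. Separate Cuffdiff tables hold the authors' own comparisons and were not used. Lines of the count tables that name no gene were dropped, and 69.1 to 76.5% of the reads in a table lay on genes. The share was 69.1 to 69.5% in WD root and 70.7 to 72.0% in C root. In shoot it was 72.6 to 75.2% in WD and 75.1 to 76.5% in C. Reads with several alignments made up 14.6 to 17.5% in the root libraries and 9.51 to 10.3% in the shoot libraries. No per-sample column was left without a sample (0).

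CPM was each count divided by the library's reads on genes. Members and lists were chosen with earlier results of these data known. Lists were matched on annotation words of the study's root table, which holds genes that the study had called on these libraries.

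Counts were tested with edgeR 4.0.16 in R 4.3.3 (quasi-likelihood test, TMM scaling, low-count filter, Benjamini-Hochberg adjustment), separately for each contrast. The code was tested on simulated data. DESeq2 1.42.0, other scalings, no filter, a fold limit, a replicate block and omission of each library were alternatives, as were other settings of the limits.

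Named members were those with the largest mean difference, the highest level in both organs, up to 3 members of each list with the largest differences, the extremes of C root over C shoot, those nearest the limits and those the study names. Others are marked where they appear. p-values measure the spread between replicates of 3 vines each. A permutation of 3 against 3 libraries cannot give a two-sided p below 0.1.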

Additional observations from a re-analysis of the deposited data

How the results depend on the processing

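The number of genes within the limits, 250 as reported, was 266 with TMM scaling (230 of the members kept), 261 with DESeq2 size factors (221 kept) and 213 on RPKM (169 kept). It was 468 with a fold limit of 5/4, 87 with a 2-fold limit and 625 where WD and C libraries could overlap. Omission of single libraries gave 201 to 715 genes, with 715 without WD root replicate 1 and 432 without C root replicate 2. Omission of WD root replicate 3 and WD shoot replicate 3 together, an alternative chosen after seeing the data, gave 200 genes, of which 169 were members.

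Members higher in C root than in C shoot, 111 as reported, numbered 95 to 124 under the other settings and 96 to 111 with single libraries left out, while 3709 to 6275 and 4302 to 5219 of all genes were called (5495 as reported). Those lower in C root, 50 as reported, numbered 37 to 54 and 35 to 49, beside 4514 to 6306 and 4740 to 5829 of all genes (6026 as reported). In WD root edgeR called 0 members lower under each of its settings, and DESeq2 called 54, beside 164 of all genes. In WD shoot, 146 as reported, DESeq2 called 227, and omission of single libraries gave 12 to 190 calls, where the lowest was 12 on leaving out WD shoot replicate 2. Calls over all genes, 2738 as reported, moved too, to 3964 with DESeq2 and to 224 to 3355 with single libraries left out. Members called numbered 23 without C shoot replicate 3, beside 275 of all genes, and 73 without C shoot replicate 2, beside 1142. They numbered 94 without WD shoot replicate 3, beside 1452 of all genes. The causes were not tested. Of 564 alternative values of the named members' organ difference, 534 kept their call and direction, 22 lost the call, 8 gained it and 0 changed direction.

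With the replicate block, 109 members were higher and 45 lower in C root, 0 were lower in WD root and 118 in WD shoot. Deviations of same-numbered libraries correlated at -0.002, -0.01 and 0.20 between C root and C shoot, and other pairs at -0.19 to 0.13. Between WD and C libraries of the same organ, which are different vines, same-numbered libraries correlated at -0.46 to 0.15. These values do not decide whether C root and C shoot libraries share vines, and the numbers were not taken to pair the libraries. Between WD root and WD shoot, same-numbered libraries correlated at 0.27, 0.03 and 0.32, and other pairs at -0.35 to 0.15. Tips of both organs were cut at the same time, but whether same-numbered root and shoot libraries share vines is not stated. Depth limits the values of the members with few reads: 56 members had at least 1 WD library, in either organ, with 3 reads or fewer.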
